A study of Mus musculus with 40 samples.

Results

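The genes that copy DNA were followed across 8 states of mouse CD4+ T cells. The set holds 50 genes that act at the replication fork, prepare origins for it or drive entry into S phase, chosen by gene symbol from the 21950 genes of the deposited RNA-seq table, and all 50 were found in it. They fall into 11 roles: the MCM helicase, origin licensing, helicase activation, the sliding clamp and its loader, single-strand binding, polymerases and primase, Okazaki fragment joining, nucleotide supply, fork protection and checkpoint, G1/S regulators, and chromatin assembly with histone mRNA. The study asked how induced regulatory T cells (iTregs) differ from conventional T cells (Tconvs) and thymus-derived regulatory T cells (tTregs), and what T cell receptor restimulation does to iTregs. There were 24 bulk libraries in 8 groups of 3: Tconvs at rest and after activation, tTregs (nTreg in the labels) in the same 2 states, rested iTregs, restimulated iTregs, and iTregs restimulated with an ORAI inhibitor (ORAIinh, against store-operated calcium entry) or with cyclosporine A (CsA, against the calcineurin-NFAT step). All cells came from C57BL/6 mice that carry a fluorescent Foxp3 reporter; which of the study's 2 reporters, GFP or RFP, marked the iTregs of these libraries was not stated. Tconvs and tTregs were sorted from spleens of mice 2 to 4 months old, tTregs by the reporter. iTregs were made from naive CD4+ reporter-negative cells of mice 6 weeks old, by anti-CD3 and anti-CD28 with TGF-β and IL-2 for 4 days, then sorted as reporter-positive and rested in IL-2 for 1 day. All 4 iTreg groups had therefore been activated once before any restimulation, and the age, culture, cytokines and cell type of iTregs cannot be told apart in a comparison with the other cells. How long the cells were activated or restimulated for these libraries, and whether the 3 libraries of a group came from separate mice, was not given in the sources used here, so the spread between libraries may be technical.

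Before a cell divides, the origin recognition complex with CDC6 and CDT1 loads the ring-shaped MCM helicase onto origins. In S phase CDC45, the GINS complex and MCM10 switch that ring on, DNA polymerases held by the PCNA clamp copy both strands, and FEN1 and DNA ligase I join the lagging strand. E2F transcription factors and cyclin E set the moment of entry, and many genes of the set are textbook E2F targets. A resting T cell does not copy its DNA, and a T cell that has met its antigen turns into one of the fastest dividing cells of the body.

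Depth and cell identity were checked first. Libraries held 5256800 to 15685234 reads on genes, with tTregs the shallowest (5256800 to 9893053 reads). The pan-T-cell list (*Cd3d*, *Cd3e*, *Cd3g*, *Cd4*, *Cd2*, *Cd5*) was present in full in every group. *Foxp3* stood at 6815 to 7951 normalized counts in tTregs after activation, 1178 to 1338 in rested iTregs and 31.1 to 35.9 in activated Tconvs. The whole Treg list (5 genes, *Foxp3* among them) parted the groups less. It summed to 31245 to 38491 in activated tTregs and 19702 to 24800 in rested iTregs. In Tconvs it summed to 1566 to 1731 at rest and 10019 to 10926 after activation. The B cell marker *Cd79b* ranged from 85.4 to 126 normalized counts in tTregs and from 5.27 to 36.9 elsewhere. *Ms4a1*, which defines B cells, was at 0 in all 6 tTreg libraries, and *Cd79b* was the B cell marker that stood out. The NK cell list (*Ncr1*, *Klrb1c*, *Eomes*) summed to 33.4 to 40.1 normalized counts in resting Tconvs, 281 to 308 in activated Tconvs and at most 5.69 in tTregs. In activated Tconvs *Eomes*, which T cells also express, made up 277 to 306 of it, while *Ncr1* and *Klrb1c* were at most 2.12. In resting Tconvs 2 of the 3 NK genes averaged at least 10 normalized counts. The myeloid list (5 genes) summed to 15.4 to 25.5 in resting and 4.31 to 9.91 in activated Tconvs, and to 9.07 to 9.11 and 1.35 to 6.62 in tTregs. The CD8 list (*Cd8a*, *Cd8b1*) summed to 223 to 236 in resting and 110 to 123 in activated Tconvs, and to 157 to 178 and 105 to 160 in tTregs, with *Cd8a* at most 11.7 in any of these libraries. The dendritic cell list (4 genes) summed to 79.0 to 107 in resting and 26.9 to 40.3 in activated Tconvs, and to 86.6 to 110 and 45.8 to 72.7 in tTregs, most of it *Zbtb46*. The part of these markers in the results was not tested. Levels are given as normalized counts, that is reads divided by a size factor for the library. Log2 fold changes are on the scale of log2(normalized count + 1), with the SE of the fit, and they understate the change of genes near 0. In bulk samples, fewer cells that express a gene and less of its RNA per cell cannot be told apart.

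E2F letters were frequent in promoters of the set and of other replication genes. RefSeq promoter windows (GRCm38.p6, 250 bases before to 50 after a transcription start) matched 41 of the 50 genes with 47 windows. The letters TTTCCCGC, TTTCGCGC, TTTGCCGC or TTTGGCGC, on either strand and with overlaps allowed, were found in 16 of these 47 windows (34.0%), against 2.26% of all 32851 windows and 4.01% of the 11683 windows of genes tested. A list of other replication and S phase genes had them in 18 of 55 windows (32.7%) and a list of mitosis genes in 1 of 18 (5.56%). The CCAAT box (CCAAT, both strands) was in 59.6% of the windows of the set, 37.4% of all windows, 40.0% of those of the other replication genes and 83.3% of those of the mitosis genes. CHR letters (TTTGAA, both strands), known from promoters of mitosis genes, were in 12.8% of the windows of the set, 17.9% of all windows, 21.8% of those of the other replication genes and 72.2% of those of the mitosis genes. These are matches of letters and not measured binding sites. The 250 bases before the start are shown for a helicase subunit with large induction (*Mcm5*), the one helicase subunit whose induction was not called different between Tconvs and tTregs (*Mcm6*), the gene with the largest induction in Tconvs (*Dtl*) and the initiating polymerase (*Pola1*), each 5′ to 3′ on its own strand with the E2F letters in capitals.
Mcm5, chr8:75109259-75109508, plus strand: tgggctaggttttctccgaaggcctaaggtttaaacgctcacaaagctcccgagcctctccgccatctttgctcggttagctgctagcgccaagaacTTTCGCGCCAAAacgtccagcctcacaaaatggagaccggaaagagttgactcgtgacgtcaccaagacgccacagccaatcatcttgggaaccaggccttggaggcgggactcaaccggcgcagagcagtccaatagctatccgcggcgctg
Mcm6, chr1:128359706-128359955, minus strand: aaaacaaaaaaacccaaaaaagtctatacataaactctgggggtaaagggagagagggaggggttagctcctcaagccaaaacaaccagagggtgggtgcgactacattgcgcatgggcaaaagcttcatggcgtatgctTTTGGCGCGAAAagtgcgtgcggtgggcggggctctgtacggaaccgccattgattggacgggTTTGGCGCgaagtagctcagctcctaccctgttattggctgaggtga
Dtl, chr1:191575545-191575794, minus strand: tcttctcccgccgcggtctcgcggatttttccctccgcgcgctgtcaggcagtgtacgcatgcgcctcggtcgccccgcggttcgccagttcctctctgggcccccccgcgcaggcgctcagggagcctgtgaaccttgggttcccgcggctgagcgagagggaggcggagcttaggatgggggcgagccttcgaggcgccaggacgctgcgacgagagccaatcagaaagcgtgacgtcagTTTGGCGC
Pola1, chrX:93632156-93632405, minus strand: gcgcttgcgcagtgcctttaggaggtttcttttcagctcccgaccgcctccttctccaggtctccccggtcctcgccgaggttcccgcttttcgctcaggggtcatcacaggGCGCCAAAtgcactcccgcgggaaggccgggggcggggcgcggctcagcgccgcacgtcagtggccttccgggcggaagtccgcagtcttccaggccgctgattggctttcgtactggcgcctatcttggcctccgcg
In *Mcm5* and *Mcm6* 2 matches on opposite strands overlap, and *Mcm6* has 1 more nearer the start. The match of *Dtl* ends at the base before the start, and that of *Pola1* begins 138 bases before it. The windows shown belong to the 16 of 47 with E2F letters, so they are not typical of the set. Those of *Mcm2*, *Pcna*, *Cdc45* and *Tk1*, among others, held none.

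Activation raised nearly the whole set in Tconvs and, by a smaller step, most of it in tTregs. In Tconvs 47 of 50 genes rose and 1 fell, at an adjusted p below 0.05 and a log2 fold change beyond 0.5 (all genes tested: 24.5% higher and 25.7% lower), with a median log2 fold change of 1.97 against -0.04 over all 11495 genes. In tTregs 40 rose and 0 fell (all genes: 11.9% higher), with a median of 1.02. The response of Tconvs exceeded that of tTregs, by a test of the difference between them, for 38 genes and was smaller for 1 (all genes: 17.0% and 17.7%), with a median difference of 1.12. All 3 activated Tconv libraries lay outside the range of the resting ones for every gene of the set, and this held for 45 genes in tTregs. The share of all genes that separated in this way was not counted, so these counts do not single out the set.

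**Figure D1:**
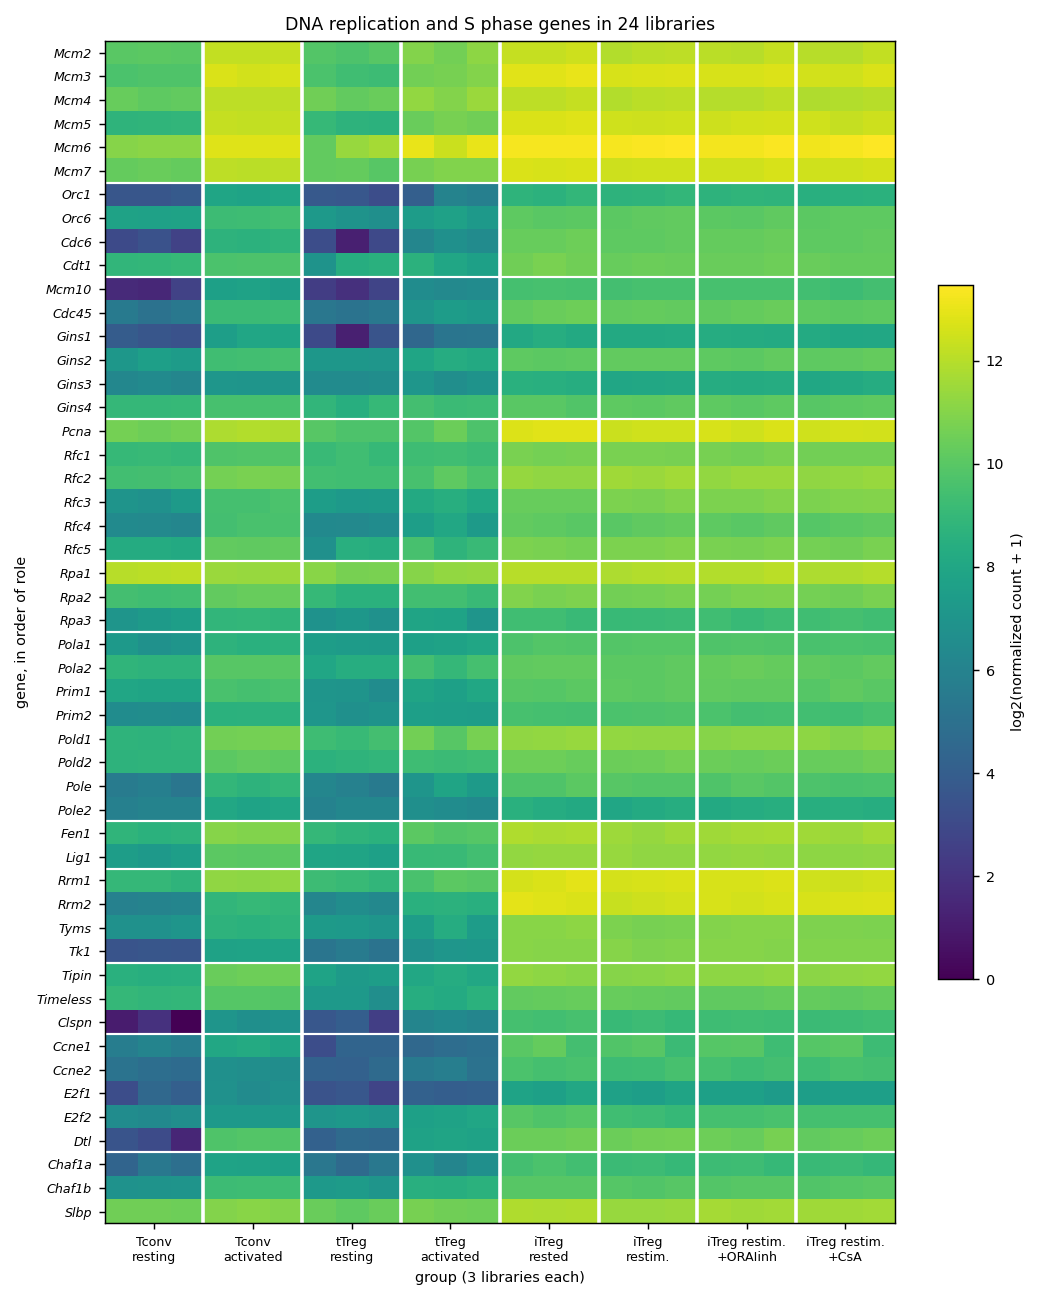
Level of each of the 50 genes (rows, ordered by role and separated by white lines) in each of the 24 libraries (columns, 3 per group), as log2(normalized count + 1) on a colour scale from 0. Most rows are darkest in resting Tconvs and resting tTregs, brighter in activated Tconvs than in activated tTregs, and brightest in the 12 iTreg libraries, which look alike.

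The MCM helicase unwinds the double helix ahead of the fork, and its 6 subunits, MCM2 to MCM7, form 1 ring. All 6 *Mcm2* to *Mcm7* genes rose with activation in both cell types, by 1.73 to 3.45 on the log2 scale in Tconvs and by 0.67 to 1.76 in tTregs. *Mcm5* stood at 428, 456 and 467 normalized counts in resting Tconvs, 4916, 4782 and 5088 in activated Tconvs, 525, 415 and 403 in resting tTregs and 1339, 1701 and 1522 in activated tTregs. The resting libraries of the 2 cell types overlapped and the activated ones did not, with log2 fold changes of 3.45 ± 0.10 and 1.76 ± 0.10 and a difference between them of 1.69 ± 0.15 (adjusted p = 6.19e-07). For *Mcm2* the libraries read 1039.8, 1092 and 1047 in resting and 4783, 4785 and 4964 in activated Tconvs, 949.8, 829 and 1003 in resting and 1996, 1556 and 2329 in activated tTregs. The Tconv response of *Mcm2* was larger by 1.13 ± 0.16 (adjusted p = 8.25e-05). *Mcm6*, singled out after its values were seen, was the 1 subunit with no difference called. It read 2071, 2265 and 2214 and then 7214, 7286 and 7206 in Tconvs, 1225, 2741 and 3235 and then 8279, 5393 and 8270.4 in tTregs, and the 2 responses differed by 0.03 ± 0.37 (95% interval -0.75 to 0.81). Replicate 1 of the resting tTregs and replicate 2 of the activated tTregs lay well below the others of their groups for this gene. Between activated tTregs and activated Tconvs *Mcm6* differed by -0.01 ± 0.26 (adjusted p = 0.972), with a 95% interval of -0.56 to 0.54, whereas the other 5 subunits ranged from -1.89 to -0.89 and all passed the test.

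Origin licensing loads that ring. ORC1 is the subunit of the origin recognition complex made anew in each cycle, and CDC6 and CDT1 are the loaders. *Cdc6* was close to absent at rest, at 7.2, 9.38 and 5.27 normalized counts in Tconvs and 8.16, 1.3 and 6.83 in tTregs, and stood at 423, 409 and 438 and 72.7, 108 and 89.0 after activation. Its rise was 5.71 ± 0.38 in Tconvs and 4.03 ± 0.38 in tTregs, and the difference was 1.68 ± 0.54 (adjusted p = 0.0222). Without replicate 1 of each group that difference was 1.17 (adjusted p = 0.203), and without replicate 3 it was 1.21 (adjusted p = 0.245). *Orc1* went from 11.3, 11.3 and 13.2 to 242, 221 and 247 in Tconvs and from 12.7, 11.7 and 7.97 to 16.2, 63.4 and 54.5 in tTregs, where replicate 1 of the activated cells remained near the resting level. The response of *Orc1* was larger in Tconvs by 2.44 ± 0.51 (adjusted p = 0.00157), and its rise in tTregs (1.77 ± 0.36, adjusted p = 0.00184) was 1.33 (adjusted p = 0.0685) without replicate 3. *Cdt1* did not pass the test in either cell type (0.76 ± 0.33, adjusted p = 0.0573 in Tconvs), but did in Tconvs at 0.74 (adjusted p = 9.30e-04) without replicate 1, as did the difference in response at 1.43 (adjusted p = 3.71e-04). It read 463, 487 and 516 and 817, 824 and 848 in resting and activated Tconvs and 119, 340 and 374 and 409, 246 and 198 in resting and activated tTregs. Replicate 1 was the lowest of the resting and the highest of the activated tTreg libraries, and the log2 fold change in tTregs turned from 0.13 to -0.69 (adjusted p = 0.00683) without it. *Orc6* rose by 1.57 in Tconvs and 0.53 in tTregs, and the rise in tTregs was 0.40 (adjusted p = 0.115) without replicate 2.

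Helicase activation genes differed widely in their steps. CDC45 and the 4 GINS subunits join MCM to form the working helicase, and MCM10 is needed to start it. *Mcm10* had 2, 2 and 6 reads in the resting Tconv libraries and 5, 2 and 5 in the resting tTreg libraries. After activation it stood at 204, 215 and 178 normalized counts in Tconvs and 91.6, 79.5 and 89.0 in tTregs, rises of 5.71 ± 0.28 and 4.10 ± 0.28. These rises differed by 1.61 ± 0.39 (adjusted p = 0.00447), and by 1.41 (adjusted p = 0.0764) without replicate 1. *Cdc45* read 46.3, 32.8 and 41.3, then 589, 572 and 602, in Tconvs and 39.9, 33.7 and 41.0, then 129, 171 and 158, in tTregs. Its Tconv response was larger by 1.89 ± 0.20 (adjusted p = 4.38e-06), and the activated libraries of the 2 cell types did not overlap. The GINS subunits did not move as a unit. *Gins1* rose by 4.17 ± 0.43 in Tconvs and 2.43 ± 0.43 in tTregs, from 14.4, 11.3 and 9.65 and 7.26, 1.3 and 10.3 normalized counts to 189, 251 and 241 and 21.5, 36.9 and 38.1. *Gins2* went from 139, 193 and 168 to 659, 673 and 715 in Tconvs and from 137, 141 and 133 to 241, 325 and 289 in tTregs. *Gins3* and *Gins4* rose by only 0.76 and 0.57 in Tconvs, and *Gins4* rose by 0.50 in tTregs (0.47, adjusted p = 0.0747 without replicate 1), so that within 1 complex of 4 proteins the log2 fold changes ran from 0.57 to 4.17. The difference in response for *Gins1* (1.74 ± 0.61, adjusted p = 0.0352) was 1.51 (adjusted p = 0.170) without replicate 1 and 1.25 (adjusted p = 0.237) without replicate 3. Of the exon bases of *Gins2*, 67.3% overlap another annotated gene (*Gse1*), and the library kit keeps no strand, so reads of the 2 cannot be told apart there.

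**Figure D2:**
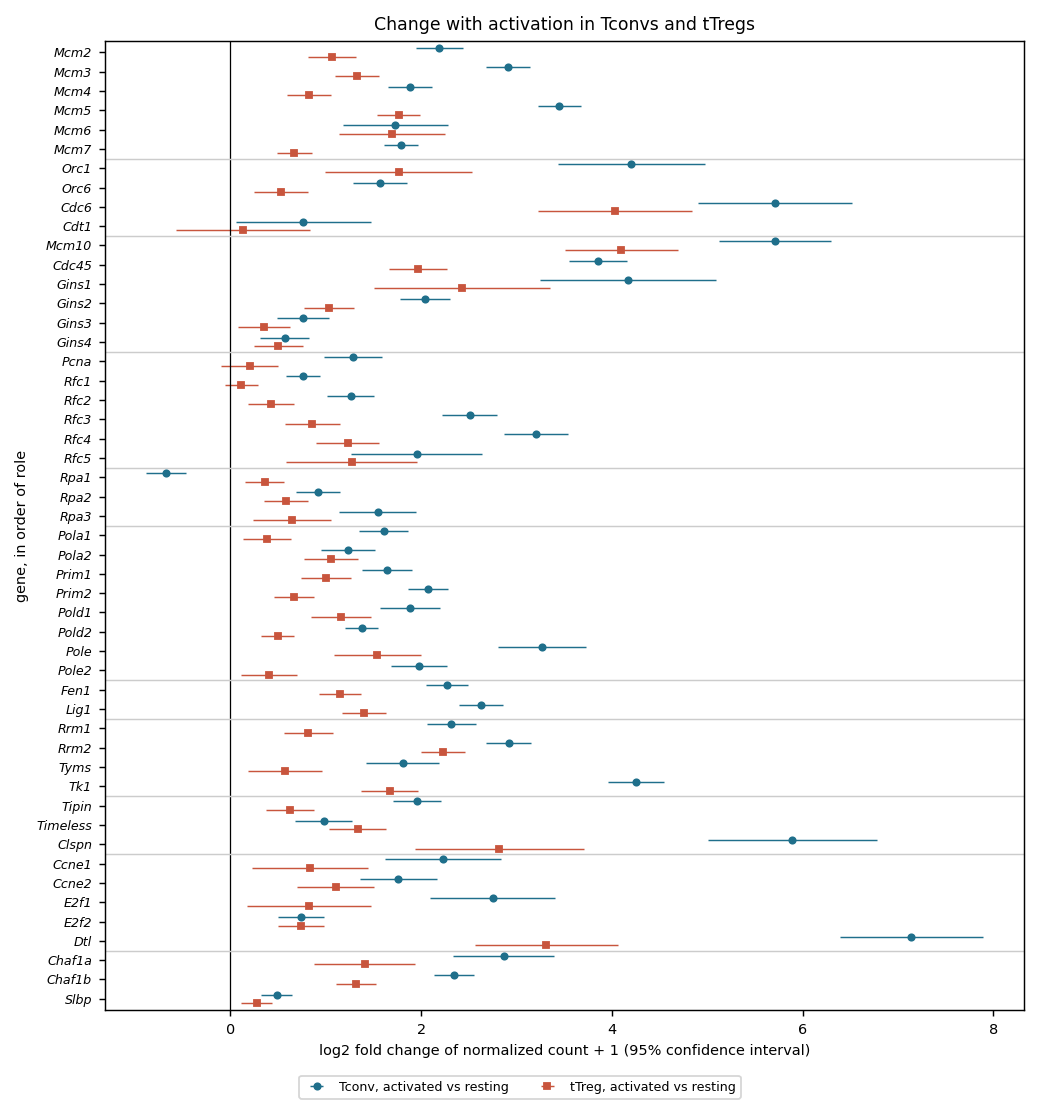
Log2 fold change with activation for each of the 50 genes, ordered by role, in Tconvs (circles) and tTregs (squares), with 95% confidence intervals from the fit. Most circles lie to the right of their squares, with Dtl farthest out at 7.14 in Tconvs, while Mcm6, E2f2 and Timeless show no such gap and Rpa1 lies to the left in Tconvs at -0.67.

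PCNA is the ring that tethers polymerases to DNA, and replication factor C, with RFC1 as its large subunit, loads it. *Pcna* rose in Tconvs, from 1589, 1422 and 1599 to 3620.4, 3883 and 3740 normalized counts (1.29 ± 0.14, adjusted p = 1.51e-06). In tTregs it read 997, 834 and 846 at rest and 939, 1377 and 828 after activation, where the groups overlapped, and it did not pass the test (0.20 ± 0.14, 95% interval -0.10 to 0.50). The difference of the responses was 1.09 ± 0.20 (adjusted p = 5.81e-04). The loader subunits were graded. *Rfc3* went from 123, 113 and 161 to 732, 719 and 801 in Tconvs and from 179.6, 149 and 159 to 289.5, 347 and 256 in tTregs, a response larger in Tconvs by 1.65 ± 0.19 (adjusted p = 8.69e-06). *Rfc1* went from 529.7, 539 and 501 to 866, 889 and 902 in Tconvs (0.76 ± 0.08, adjusted p = 1.46e-06) and stood at 554, 644 and 526 and 619, 657 and 587 in resting and activated tTregs (0.12 ± 0.08, 95% interval -0.06 to 0.29). All 5 loader genes rose in Tconvs, by 0.76 to 3.20, and 3 of the 5 (*Rfc3*, *Rfc4*, *Rfc5*) rose in tTregs.

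Replication protein A coats single-stranded DNA, and its 3 subunits parted. *Rpa1*, the large subunit, was the only gene of the set that fell with activation in Tconvs, from 4218, 4364 and 4509.7 to 2764, 2661 and 2776 normalized counts (-0.67 ± 0.10, adjusted p = 2.23e-05). In tTregs it read 2137, 1699.8 and 1716 at rest and 2060.4, 2484 and 2579 after activation (0.36 ± 0.10, below the size threshold). The 2 responses differed by -1.04 ± 0.14 (adjusted p = 3.07e-05), the only such difference toward tTregs in the set. *Rpa2* rose in Tconvs from 693, 657 and 660 to 1185, 1302 and 1317 and in tTregs from 512, 385 and 392 to 681, 677 and 563, by 0.92 ± 0.11 and 0.58 ± 0.11, and by 0.47 (adjusted p = 0.0427) in tTregs without replicate 2. *Rpa3* rose by 1.54 in Tconvs and 0.65 in tTregs, the latter 0.47 (adjusted p = 0.175) without replicate 1 and 0.62 (adjusted p = 0.111) without replicate 2. Resting Tconvs held more *Rpa1* per kb of exon (782 normalized counts per kb) than any other gene of the set, ahead of *Pcna* (640.3) and *Mcm6* (468).

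Polymerases and primase make the new strands: polymerase α with its primase starts them, polymerase ε extends the leading and polymerase δ the lagging strand. All 8 genes rose in Tconvs, by 1.23 to 3.27, and 5 of 8 rose in tTregs. *Pole*, the catalytic subunit of polymerase ε, read 48.3, 56.3 and 37.7 in resting and 481, 418 and 483 in activated Tconvs, 70.8, 59.7 and 44.4 in resting and 128, 232 and 162 in activated tTregs. Its Tconv response was larger by 1.73 ± 0.30 (adjusted p = 4.03e-04). *Pola1*, the catalytic subunit of polymerase α, went from 151, 112 and 129 to 422, 373 and 398 in Tconvs (1.61 ± 0.12, adjusted p = 2.47e-08). In tTregs *Pola1* stood at 177, 165 and 163 and 198, 214 and 251, a change of 0.38 ± 0.12 that missed the size threshold. *Prim1*, the catalytic primase subunit, rose in both, from 254, 235 and 233 to 768, 725 and 769 in Tconvs and from 128, 126 and 93.4 to 233, 202 and 258 in tTregs. The *Prim1* libraries of activated tTregs overlapped those of resting Tconvs. The difference in response of *Prim1* was 0.64 ± 0.17 (adjusted p = 0.00845), 0.60 (adjusted p = 0.0876) without replicate 1 and 0.50 (adjusted p = 0.117) without replicate 2. The joining enzymes followed: the flap nuclease gene *Fen1* went from 449, 386 and 418 to 2083, 1954 and 2009 in Tconvs and from 509.8, 439.9 and 386 to 1087, 902 and 966 in tTregs, with a difference of 1.12 ± 0.14 (adjusted p = 2.48e-05). *Lig1*, DNA ligase I, went from 179, 151 and 186 to 1097, 1028 and 1073 and from 245, 229.7 and 198 to 549, 551 and 679, with a difference of 1.23 ± 0.15 (adjusted p = 1.81e-05). For *Fen1*, 84.2% of exon bases overlap other annotated genes, so its reads cannot be assigned with certainty.

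Nucleotide supply limits how fast a fork can move. RRM1 and RRM2 form ribonucleotide reductase, thymidylate synthase (TYMS) makes thymidylate and thymidine kinase 1 (TK1) salvages it. All 4 rose in both cell types. *Rrm2*, the regulatory subunit, read 59.7, 64.7 and 68.5 in resting and 469.6, 515 and 489.6 in activated Tconvs, 70.8, 96.0 and 77.5 in resting and 379.8, 402 and 365 in activated tTregs, so that all activated tTreg libraries lay below the activated Tconv ones. The difference in response was 0.69 ± 0.15 (adjusted p = 0.00272), against 1.50 ± 0.17 (adjusted p = 8.17e-06) for its partner *Rrm1*. *Rrm1* itself read 501, 498 and 438, then 2375, 2294 and 2499, in Tconvs and 599.6, 544 and 469, then 784, 1061 and 1008, in tTregs. *Tk1* started at 10.3, 11.3 and 10.5 in Tconvs and 36.3, 48.0 and 34.2 in tTregs, where every resting library was above every resting Tconv library. After activation *Tk1* stood at 216, 225 and 224 and 109, 134 and 138, and the response was larger in Tconvs by 2.58 ± 0.20 (adjusted p = 1.38e-07). *Tyms* went from 110, 113 and 131 to 418, 383 and 440.1 in Tconvs and from 161, 148 and 128 to 180.4, 319.8 and 174 in tTregs. Its rise in tTregs (0.57 ± 0.18, adjusted p = 0.0240) was 0.31 (adjusted p = 0.139) without replicate 2, the highest, and 0.64 (adjusted p = 0.0609) without replicate 3, and the difference in response (1.23 ± 0.26, adjusted p = 0.00152) was 0.97 (adjusted p = 0.0513) without replicate 1. A *Tyms* pseudogene and a pair of *Pcna* pseudogenes are annotated, and reads could have been shared with them.

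Fork protection and S phase entry genes held the 2 largest rises of the set in Tconvs, *Dtl* and *Clspn*. CLSPN (claspin) carries the checkpoint signal at a stalled fork, and TIMELESS with TIPIN steadies it. *Clspn* had 1, 3 and 0 reads in the resting Tconv libraries and stood at 130.2, 103 and 117 normalized counts after activation. In tTregs *Clspn* read 11.8, 15.6 and 4.56 at rest and 68.7, 84.2 and 69.0 after activation, and the responses differed by 3.07 ± 0.59 (adjusted p = 8.23e-04). With so few reads at rest in Tconvs, the size of that difference depends on the pseudocount. *Timeless* rose in both cell types, from 496, 469.9 and 484 to 963, 962 and 933 in Tconvs and from 152, 157 and 99.1 to 329.9, 306 and 381 in tTregs, with a difference of -0.36 ± 0.20 (95% interval -0.78 to 0.07). *Dtl*, part of the ligase that removes CDT1 in S phase, rose most of all in Tconvs, from 10.3, 7.5 and 1.76 to 878, 926 and 905 (7.14 ± 0.35, adjusted p = 2.61e-10). In tTregs it went from 17.2, 24.7 and 22.8 to 217, 229 and 216, and the difference in response, 3.83 ± 0.50 (adjusted p = 2.70e-05), was the largest in the set.

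Cyclin E and the activating E2Fs drive the step from G1 into S phase. *Ccne1*, cyclin E1, read 51.4, 67.5 and 50.9 in resting and 274, 303 and 229 in activated Tconvs, and 8.16, 19.5 and 19.4 and 22.9, 27.4 and 30.9 in resting and activated tTregs, so that activated tTregs lay below even resting Tconvs. The response was larger in Tconvs by 1.39 ± 0.40 (adjusted p = 0.0131), which became 1.25 (adjusted p = 0.0936) without replicate 2 and 1.34 (adjusted p = 0.0629) without replicate 3. The rise of *Ccne1* in tTregs (0.83 ± 0.29, adjusted p = 0.0350) was not called when any 1 of the 3 replicates was left out, with adjusted p from 0.0647 to 0.178. *Ccne2*, cyclin E2, went from 33.9, 28.1 and 25.5 to 107, 100 and 94.8 in Tconvs and from 18.1, 16.9 and 23.9 to 45.8, 53.0 and 32.7 in tTregs, with a difference of 0.65 ± 0.27 that did not pass the test (95% interval 0.08 to 1.22). *E2f1*, an activating E2F, rose in Tconvs from 8.23, 22.5 and 15.8 to 113, 89.7 and 106 and read 9.98, 11.7 and 5.69 and 17.5, 15.1 and 16.3 in resting and activated tTregs. Its rise in tTregs (0.83 ± 0.30, adjusted p = 0.0485) was 0.86 (adjusted p = 0.103) without replicate 1 and 0.55 (adjusted p = 0.320) without replicate 3, and the difference in response was 1.92 ± 0.43 (adjusted p = 0.00261). *E2f2*, the second activating E2F of the set, went from 93.6, 83.5 and 100.1 to 153, 157 and 154 in Tconvs and from 129.7, 144 and 126 to 202, 218 and 252 in tTregs. Its responses differed by 0.00 (95% interval -0.34 to 0.34). In activated tTregs *E2f2* was the only gene of the set above activated Tconvs (0.53 ± 0.11, adjusted p = 9.56e-04; 0.44, adjusted p = 0.0280 without replicate 3).

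Chromatin assembly closes the list. CHAF1A and CHAF1B place new histones behind the fork, and SLBP binds the ends of histone mRNAs. *Chaf1b* went from 114, 118 and 125 to 597, 618 and 613 in Tconvs and from 148, 169 and 128 to 366, 353 and 387 in tTregs, with a difference of 1.03 ± 0.14 (adjusted p = 4.18e-05). *Slbp* was abundant in every group. It read 1480, 1479 and 1458 and 2013, 2159 and 2014 in resting and activated Tconvs and 1339, 1135 and 1329 and 1648, 1526 and 1424 in resting and activated tTregs, changes of 0.48 ± 0.08 and 0.28 ± 0.08 that missed the size threshold.

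Resting tTregs and resting Tconvs differed in both directions over the set. Of the 50 genes, 5 were higher and 12 lower in resting tTregs than in resting Tconvs (all genes: 20.5% and 18.2%), with log2 differences from -1.87 to 2.42 and a median of -0.04. Genes of the set were thus called about as often as genes in general (38.6% of all genes in either direction). The 5 higher were *Clspn* (2.42), *Dtl* (1.80), *Tk1* (1.78), *E2f2* (0.53) and *Pold1* (0.52). Of these, *Pold1* was 0.51 (adjusted p = 0.0619) without replicate 1 and 0.45 (adjusted p = 0.0603) without replicate 3, and *E2f2* was 0.40 (adjusted p = 0.0455) without replicate 2. Among the 12 lower, *Cdt1*, *Gins1* and *Ccne2* were not called without replicate 1 or without replicate 2, and *Pola2* not without replicate 1. Of the genes not called, *Lig1* was called higher without replicate 3 (0.53) and *Chaf1a* higher without replicate 2 (0.70). *E2f1*, also not called, was called lower without replicate 1 (-1.11). The 3 lowest were *Ccne1* (-1.87 ± 0.29, adjusted p = 6.70e-05), *Timeless* (-1.85 ± 0.14, adjusted p = 4.37e-08) and *Rpa1* (-1.24 ± 0.10, adjusted p = 5.31e-08). After activation 41 were lower and 1 higher in tTregs (all genes: 22.6% lower and 25.6% higher), with a median of -1.21. The lowest after activation were *Ccne1* (-3.26), *Gins1* (-2.81) and *Orc1* (-2.59). *Rfc1* was not called without replicate 3, nor *Rfc5* without replicate 2 or 3, and *Slbp* was called without replicate 1. These comparisons share their libraries with the tests of activation above and add no separate evidence.

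Most genes of the set stood higher in rested iTregs than in any Tconv or tTreg group. Against resting Tconvs 49 of 50 genes were higher (all genes: 32.8%), with a median log2 fold change of 2.86, and against resting tTregs all 50 were higher (all genes: 32.3%; median 3.03). Against activated tTregs 49 were higher (all genes: 28.9%; median 2.12), and against activated Tconvs 35 were higher and 0 lower (all genes: 22.9%; median 0.78). *Rpa1* was the exception against resting Tconvs, with 4096, 4130.3 and 4191 normalized counts in rested iTregs (-0.08 ± 0.10, 95% interval -0.28 to 0.13), and *Mcm6* against activated tTregs (0.47 ± 0.26, 95% interval -0.08 to 1.02), which was called without replicate 1. Quantile normalization moved the median of all genes in the comparisons of rested iTregs with resting and activated Tconvs to -0.12 and -0.11. For activated Tconvs it turned the split of all called genes from 2634 higher and 2150 lower to 2095 higher and 2835 lower, while 30 genes of the set remained higher and 0 lower.

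The distance between rested iTregs and activated Tconvs ranged widely between roles. For the helicase ring it was small: *Mcm2* read 4936, 5081 and 5510.1 in rested iTregs, a difference of 0.09 ± 0.12 (95% interval -0.15 to 0.34), and *Mcm5* read 6688, 6729 and 7318, a difference of 0.49 ± 0.10 that missed the size threshold. *Mcm7* was the only one of the 6 that passed, at 0.59 ± 0.08 (adjusted p = 3.21e-05). The polymerases were higher by at most 1.16, in *Pola1*, which stood at 844, 917 and 915. Nucleotide supply stood far apart. *Rrm2* read 7656, 7093 and 6738 in rested iTregs, 14.5-fold the level of activated Tconvs (3.86 ± 0.11, adjusted p = 2.45e-12). *Tk1* read 2143, 2073 and 2068, a difference of 3.23 ± 0.14 (adjusted p = 9.81e-11). *Tyms* read 2199, 2152 and 2304 and *Rrm1* 6339.5, 6729 and 7798, differences of 2.42 ± 0.18 and 1.54 ± 0.12. In every one of these 4 genes all 3 iTreg libraries were above all 3 activated Tconv libraries. Such separation held for 48 genes of the set, so it does not single out nucleotide supply. The share of all genes that separated in this way was not counted. The smallest difference of these 4 genes exceeded the median of each of the other roles except G1/S regulators.

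The G1/S regulators other than *Dtl*, and the checkpoint gene *Clspn*, were also above activated Tconvs in rested iTregs. *Ccne2* read 796, 723 and 788, a difference of 2.92 ± 0.19 (adjusted p = 7.83e-09), *E2f2* read 1016, 879 and 972, a difference of 2.62 ± 0.11 (adjusted p = 1.03e-10), and *Clspn* read 710.4, 669.9 and 739, a difference of 2.59 ± 0.42 (adjusted p = 9.78e-05). *Ccne1* read 1038, 1250 and 707, with replicate 3 the lowest in all 4 iTreg groups, and differed by 1.86 ± 0.29 (adjusted p = 6.12e-05). Against activated tTregs the same gene showed the largest difference of the set, 5.13 ± 0.29 (adjusted p = 9.26e-10). *E2f1* stood at 228, 204 and 265, which was 1.16 ± 0.30 above activated Tconvs. By contrast *Dtl*, the remaining G1/S regulator, stood at 1404, 1397 and 1527, and the helicase activation gene *Gins1* at 285, 337 and 289. Neither passed the test against activated Tconvs, with 95% intervals of -0.07 to 1.42 and -0.50 to 1.34.

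Licensing and helicase activation lay between. *Cdc6* stood at 1313, 1283 and 1447 in rested iTregs (1.67 ± 0.38, adjusted p = 0.00174 against activated Tconvs), *Mcm10* at 724, 761 and 726 (1.89 ± 0.28, adjusted p = 3.95e-05) and *Cdc45* at 1214, 1329 and 1433 (1.17 ± 0.14, adjusted p = 6.71e-06). *Orc1*, at 428, 406 and 481, passed only just (0.88 ± 0.36, adjusted p = 0.0498) and was 0.89 (adjusted p = 0.157) without replicate 2 and 0.85 (adjusted p = 0.185) without replicate 3. The loader *Cdt1*, at 1508, 1752 and 1521, differed by 0.94 ± 0.33 (adjusted p = 0.0258), by 0.86 (adjusted p = 0.175) without replicate 2 and by 0.99 (adjusted p = 0.0763) without replicate 3. *Rpa2*, *Rfc2* and *Rfc4* were not called without replicate 1, whereas *Mcm5* and *Rfc5* were called without replicate 1 and *Dtl* without replicate 3. Of the remaining genes followed in each library, *Pcna* stood at 6854, 7554 and 7358, *Lig1* at 2504, 2558 and 2558, *Fen1* at 3763, 3446 and 3645 and *Slbp* at 3791, 3665 and 3767. These 4 were above activated Tconvs by 0.95, 1.25, 0.84 and 0.86. Per kb of exon, rested iTregs held most *Pcna* (3023 normalized counts per kb), *Rrm2* (2585) and *Mcm6* (2129), whereas activated Tconvs held most *Mcm3* (1702), *Pcna* (1562) and *Mcm6* (1551).

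**Figure D3:**
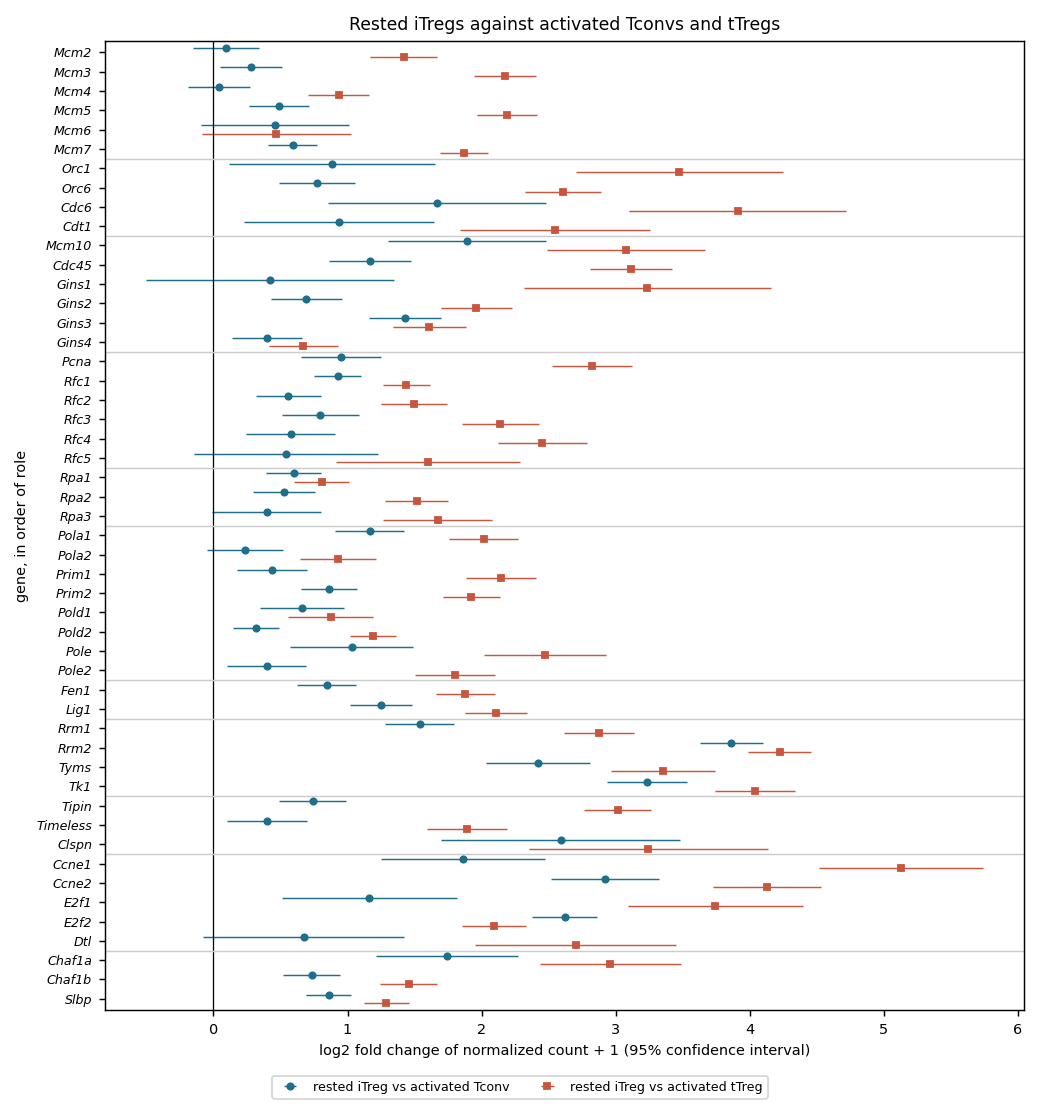
Log2 fold change of rested iTregs against activated Tconvs (circles) and against activated tTregs (squares) for each of the 50 genes, ordered by role, with 95% confidence intervals from the fit. The circles of the 6 MCM genes lie between 0.04 and 0.59, those of the 4 nucleotide supply genes between 1.54 and 3.86, and no value lies below 0.

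Mitosis genes also rose with activation in both cell types. In a list of 22 genes of the G2 and M phases, 20 rose with activation in Tconvs and 21 in tTregs (all genes: 24.5% and 11.9% higher). Their medians were 2.37 and 2.17. Between the responses there was a median difference of 0.18, and single genes ranged from -2.33 to 2.40. The response was called larger in Tconvs for 4 and in tTregs for 2 (all genes: 17.0% and 17.7%). These counts are near or below those shares and do not single out the list. *Top2a*, which untangles chromosomes, differed by 2.40 ± 0.16 (adjusted p = 3.41e-08), from 33.9, 42.2 and 43.0 to 879, 901 and 938 in Tconvs and from 159.7, 126 and 146 to 540, 637 and 659 in tTregs. *Ccnb2* differed the other way by -2.33 ± 0.43 (adjusted p = 5.72e-04), from 11.3, 12.2 and 16.7 to 24.2, 19.0 and 16.3 in Tconvs and from 8.16, 5.19 and 17.1 to 67.3, 65.3 and 87.2 in tTregs. Averaged per library as log2(normalized count + 1), mitosis genes stood at 6.50, 6.40 and 6.47 in activated Tconvs and 6.47, 6.47 and 6.35 in activated tTregs, and the groups overlapped. The 50 replication genes averaged 9.57, 9.56 and 9.59 in activated Tconvs and 8.29, 8.37 and 8.34 in activated tTregs, with no overlap. In rested iTregs the mitosis genes averaged 11.18, 11.13 and 11.17 and the replication genes 10.63, 10.62 and 10.63. All 22 were higher in rested iTregs than in activated Tconvs (all genes: 22.9%), with a median of 4.59, against 0.78 for the 50 replication genes. *Ccnb2*, a cyclin of mitosis, showed the largest such difference, at 7.25 ± 0.30 (adjusted p = 7.46e-11).

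**Figure D4:**
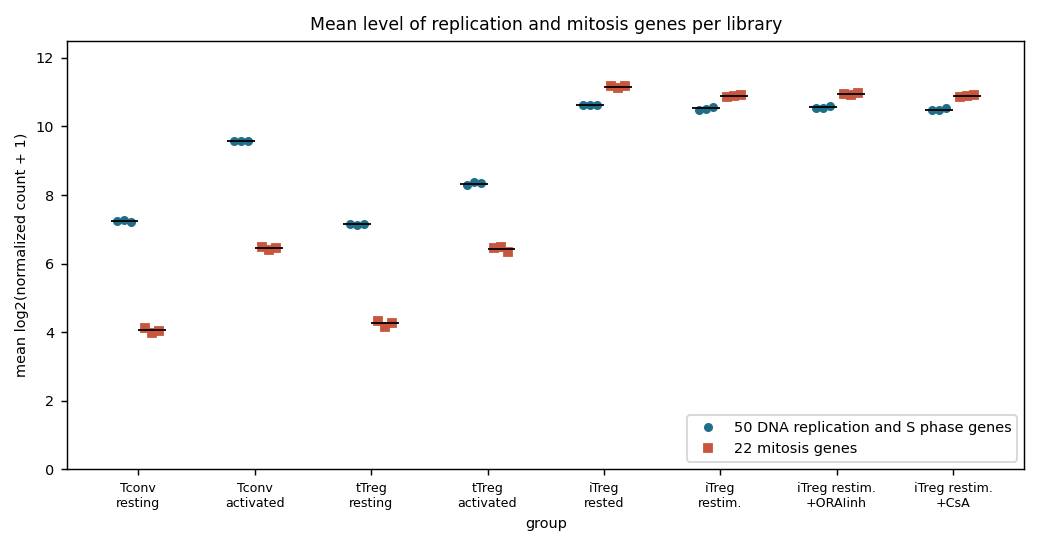
Mean log2(normalized count + 1) per library over the 50 replication genes (circles) and over 22 mitosis genes (squares) in the 8 groups, with a line at the mean of each 3 libraries. Replication genes average near 9.57 in activated Tconvs and 10.63 in rested iTregs, while mitosis genes average near 6.45 and 11.16.

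A wider list of 54 other replication and S phase genes moved the same way with more exceptions. In Tconvs 38 of 54 rose and 3 fell with activation (all genes: 24.5% higher and 25.7% lower). The rises were led by *Uhrf1* (5.73), which keeps DNA methylation through replication, *Ticrr* (5.01), which helps load CDC45, and *Dna2* (4.50), a flap nuclease. The 3 that fell were *Dck* (-1.72), a salvage kinase, *Tfdp2* (-0.90), a partner of E2F, and *Mcmbp* (-0.79), which binds MCM. In tTregs 23 rose and 4 fell (all genes: 11.9% higher and 10% lower), led by *E2f8* (3.68) and *E2f7* (2.77), repressor E2Fs. *Ticrr* was among those that fell in tTregs (-0.99 ± 0.30, adjusted p = 0.0190). It read 117, 175 and 159 at rest and 76.8, 91.8 and 58.1 after activation in tTregs, against 0, 0.938 and 1.76 and 51.2, 56.1 and 58.7 in Tconvs. The responses of *Ticrr* were opposite in direction, with a difference of 6.00 ± 0.42 (adjusted p = 5.95e-08), and with 0, 1 and 2 reads in resting Tconvs its size depends on the pseudocount. Against activated Tconvs, 31 of 54 were higher and 2 lower in rested iTregs (all genes: 22.9% higher and 18.7% lower). At the top were *E2f8* (4.39), *E2f7* (3.30) and the histone chaperone gene *Asf1b* (3.17).

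Restimulation of iTregs moved 1 gene of the set past the thresholds. Against rested iTregs 0 of 50 genes were called higher and 1 lower (all genes: 6.70% higher and 6.13% lower), with a median of -0.10. The 1 gene was *E2f2*, which read 1016, 879 and 972 in rested and 659, 613 and 529 in restimulated iTregs without overlap (-0.67 ± 0.08, adjusted p = 1.94e-05). Without the size threshold 17 of 50 genes passed the adjusted p, near the share of all genes (29.4% in either direction). That count does not single out the set. By direction 2 genes went up and 15 down, and the shares of all genes by direction were not counted. Among the 17 genes *Slbp* went from 3791, 3665 and 3767 to 2687, 2642 and 2829 (-0.46 ± 0.05, adjusted p = 7.96e-06) and *Pcna* from 6854, 7554 and 7358 to 5322, 5719 and 5703 (-0.38 ± 0.06, adjusted p = 3.31e-04). *Rfc3* went the other way, from 1289, 1299 and 1320.2 to 1793, 1734 and 1925 (0.48 ± 0.06, adjusted p = 6.15e-05), and passed the size threshold at 0.51 (adjusted p = 0.00528) without replicate 2. *Rfc3* was also the 1 gene called higher than in rested iTregs with ORAIinh, at 1820, 1827 and 2022 (0.53 ± 0.06, adjusted p = 4.94e-05; all genes: 3.97%), and with CsA, at 1776, 1955 and 2023 (0.56 ± 0.06, adjusted p = 2.58e-05; all genes: 5.19%). These 3 comparisons share the rested iTreg libraries, and without replicate 3 the ORAIinh value was 0.49 (adjusted p = 4.48e-05).

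Neither inhibitor shifted a gene of the set past the thresholds. Against restimulation alone 0 of 50 genes were called with ORAIinh (all genes: 3.30% in either direction) and 0 with CsA (all genes: 2.92%), by limma, edgeR and DESeq2 alike. With so small a share of all genes called, 0 of 50 does not set these genes apart from genes in general. At an unadjusted p below 0.05 limma gave 13 genes with ORAIinh and 15 with CsA. The share of all genes at that unadjusted p was not counted, so these counts are no result about the set. *E2f2* stood at 722, 726 and 772 with ORAIinh and 714, 734 and 710.1 with CsA, all above the 3 libraries of restimulation alone and below the 3 of rested iTregs, by 0.31 ± 0.08 (adjusted p = 0.0294) and 0.27 ± 0.08 (adjusted p = 0.0550) against restimulation. *Tyms* read 1806, 1699 and 1732 in restimulated iTregs, 1983, 2076 and 2110.4 with ORAIinh and 1852, 1862 and 1829.6 with CsA, differences of 0.24 ± 0.05 (adjusted p = 0.0107) and 0.08 ± 0.05 (adjusted p = 0.377). By adjusted p alone, with no size threshold, ORAIinh called 3 genes (all genes: 7.83%) and CsA 4 (all genes: 8.51%). Both counts out of 50 are near the shares of all genes and do not single out the set. *Rrm2* read 5242, 5655 and 6052, 6519, 5974 and 6571 and 6565, 6783 and 7070.5 in the same order, differences of 0.17 ± 0.07 (adjusted p = 0.142) and 0.27 ± 0.07 (adjusted p = 0.0200). *Pola1* read 938, 982 and 974, 882, 893 and 855 and 775, 809 and 779, and was lower by a small step with CsA (-0.29 ± 0.06, adjusted p = 0.00590). Between the 2 inhibitors 0 of 50 genes were called (all genes: 0.360%), again by limma, edgeR and DESeq2 alike. With that share of all genes, this count does not set the 50 genes apart either. At an unadjusted limma p below 0.05 there were 10, also without a count over all genes. The largest difference was 0.22, and over all 50 genes the 95% intervals of the difference between the inhibitors lay within -0.53 and 0.57. Doses of the 2 compounds for these libraries were not given in the sources used here, so their strengths were not matched by a known measure.

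**Figure D5:**
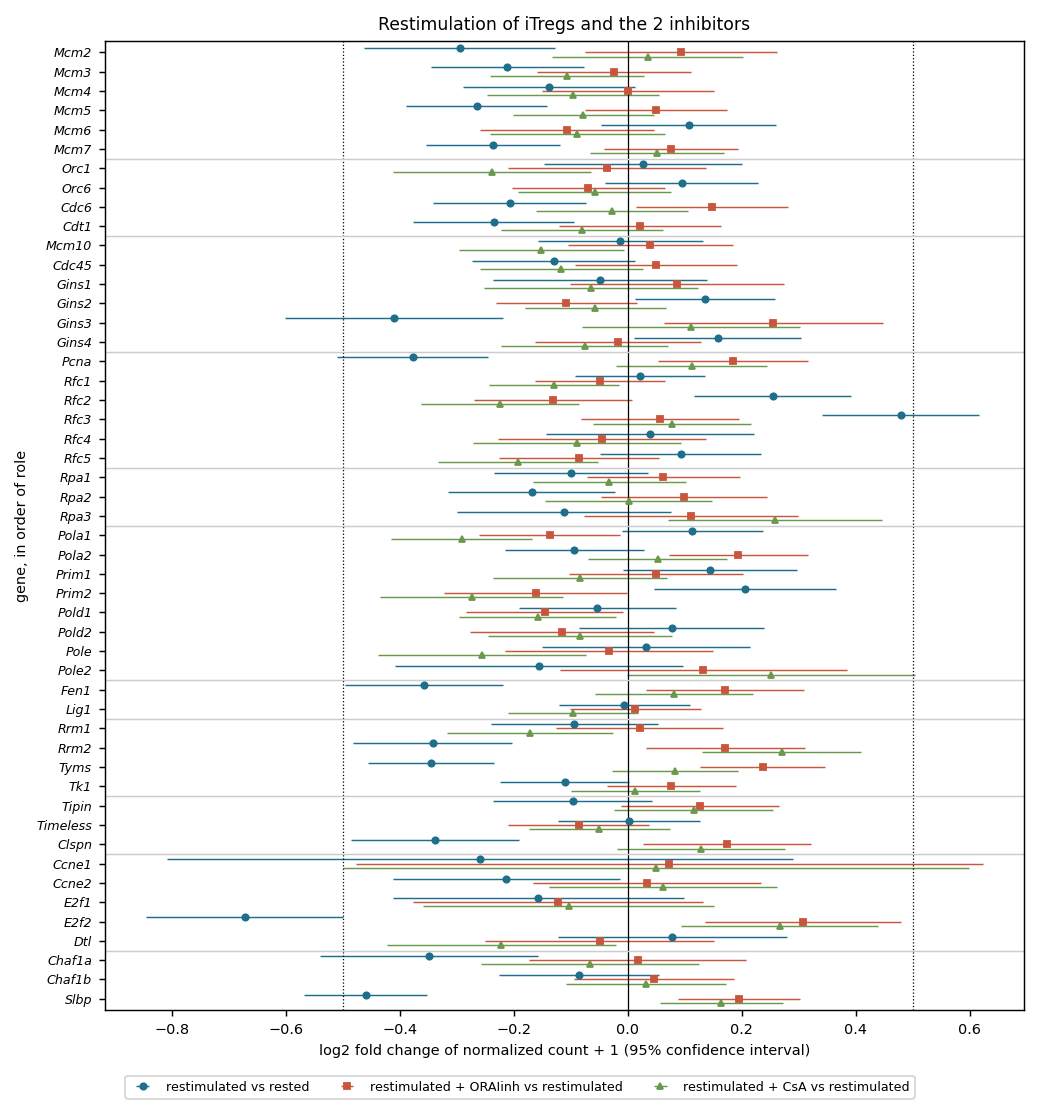
Log2 fold change for each of the 50 genes, ordered by role, on restimulation of iTregs (circles) and on restimulation with ORAIinh (squares) or CsA (triangles) against restimulation alone, with 95% confidence intervals from the fit and dotted lines at -0.5 and 0.5. E2f2 at -0.67 is the only value past a dotted line, and every inhibitor value lies between -0.29 and 0.31.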

How the data were processed

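RNA-seq libraries (24, 8 groups of 3, groups from the sample titles) were made by a modified SMART-seq2 protocol with oligo-dT priming, which keeps no strand. Per the study's methods and the submitters' processing notes, the authors trimmed reads with Cutadapt 1.18, aligned them to mm10 with STAR 2.5.3, counted genes with RSEM 1.3.0 on a GENCODE annotation of GRCm38 and used DESeq2 1.26. The deposited table holds a signal, counts divided by a size factor per library, and every value was a whole multiple of what 1 read is worth (tolerance 0.01 reads), so the reads were recovered for edgeR and DESeq2.

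Genes that reached 10 normalized counts in 3 or more libraries were fitted with limma 3.58.1 (trend) on log2(normalized count + 1), in R 4.3.3. Resting and activated Tconvs and tTregs and rested iTregs entered 1 fit (15 libraries, 11495 genes, 9 comparisons), and the 4 iTreg groups another (12 libraries, 11105 genes, 6 comparisons). All 50 genes passed the filter in both. P-values were adjusted by Benjamini-Hochberg over all genes of a fit, and genes were called where the adjusted p was under 0.05 and the log2 fold change passed 0.5 in size. The scripts were tested on simulated counts. Depth sets the floor: 3 reads were worth 2.12 to 5.45 normalized counts, and floors cover counting error only. Replicates of a group differed by more than counting noise, so none was taken as a duplicate. Exon lengths and overlaps came from GENCODE vM21 and promoters from RefSeq GRCm38.p6. The other libraries of the series (16 samples, chromatin assays) were not used here. A marker gene of the cell type check is not reported here. The 50 genes, their roles and the other lists were chosen with earlier results of these data known, and lists are described by counts and medians, with no test. Every gene of the set could be named, 31 of them with each library's value, beside the 3 largest rises and falls of a comparison and, from other lists, at most 3 genes in each direction.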

Additional observations from a re-analysis of the deposited data

Results flagged for a closer look

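The response to activation differed between Tconvs and tTregs, by a test of the difference itself (limma interaction, adjusted p below 0.05 and a log2 difference beyond 0.5), for 39 of the 50 genes. The values are log2 differences, the response of Tconvs minus that of tTregs, and no explanation was tested. In the MCM helicase the difference was 1.13 for *Mcm2*, 1.58 for *Mcm3*, 1.06 for *Mcm4*, 1.69 for *Mcm5* and 1.12 for *Mcm7*. Origin licensing genes differed by 2.44 for *Orc1*, 1.03 for *Orc6* and 1.68 for *Cdc6*. For helicase activation the values were 1.61 for *Mcm10*, 1.89 for *Cdc45*, 1.74 for *Gins1* and 1.00 for *Gins2*. The clamp and its loader gave 1.09 for *Pcna*, 0.64 for *Rfc1*, 0.84 for *Rfc2*, 1.65 for *Rfc3* and 1.97 for *Rfc4*. Single-strand binding gave both signs, with -1.04 for *Rpa1* and 0.90 for *Rpa3*. Among polymerases and primase the responses differed by 1.22 for *Pola1*, 0.64 for *Prim1*, 1.41 for *Prim2*, 0.73 for *Pold1*, 0.88 for *Pold2*, 1.73 for *Pole* and 1.57 for *Pole2*. Okazaki fragment joining gave 1.12 for *Fen1* and 1.23 for *Lig1*. Nucleotide supply genes differed by 1.50 for *Rrm1*, 0.69 for *Rrm2*, 1.23 for *Tyms* and 2.58 for *Tk1*. In fork protection the difference was 1.33 for *Tipin* and 3.07 for *Clspn*. G1/S regulators gave 1.39 for *Ccne1*, 1.92 for *E2f1* and 3.83 for *Dtl*. For chromatin assembly the values were 1.46 for *Chaf1a* and 1.03 for *Chaf1b*. Of the exon bases of *Chaf1a*, 52.5% overlap another annotated gene (*Ubxn6*), so its reads cannot be assigned with certainty. Of the 39 genes, *Cdc6*, *Gins1*, *Prim1*, *Rpa3* and *Ccne1* lost their call when either of 2 replicate numbers was left out, and *Mcm10*, *Tyms*, *Pold1* and *Chaf1a* when 1 was.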

How the results depend on the processing

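The 50 genes were recomputed in 15 comparisons under other scalings, pseudocounts, filters, tools and subsets of replicates. Of 9747 values for single genes at the same thresholds, 9606 kept their direction and side of the threshold, 103 dropped below it, 37 passed it and 1 reversed: *Cdt1* in tTreg activation, -0.69 (adjusted p = 0.00683) without replicate 1, and 0.66 without replicate 3; the cause was not tested. At a log2 fold change above 1, tTreg activation called 25 genes, resting tTregs against resting Tconvs 8 (3 higher, 5 lower), rested iTregs against activated Tconvs 17, and restimulated iTregs against rested ones, alone or with either inhibitor, 0. By adjusted p alone restimulation called 17 genes, 9 with ORAIinh and 20 with CsA against rested iTregs (all genes: 29.4%, 18.4% and 24.4%), and ORAIinh and CsA called 3 and 4 against restimulation (all genes: 7.83% and 8.51%). Leaving out 1 replicate number gave 1 to 2 genes for restimulation and 0 to 1 for ORAIinh against rested iTregs, and 34 to 39 in tTreg activation. The changes with the threshold follow from its construction, and for the others the cause was not tested. With the replicate block, 39 genes were called in tTreg activation, 16 between resting tTregs and Tconvs, 34 for rested iTregs against activated Tconvs and 1 on restimulation. The block changed no other count of the set by over 1.5 times. Shares of all genes were not counted at a log2 fold change above 1, with a replicate number left out or with the block. Same-numbered libraries did not deviate together in every pair. The mean correlation of deviations was -0.007 over 30 pairs of the first fit and 0.15 over 18 pairs of iTreg groups, 10 of them over 0.1. For 36 iTreg pairs of different numbers it was -0.08, with 4 of them over 0.1. The mean of the first fit hides a spread among tTregs. Same-numbered resting and activated tTreg libraries correlated at -0.42, -0.13 and -0.25, and pairs of different numbers at -0.21 to 0.41. Among the iTreg groups the libraries numbered 3 did deviate together, with correlations from 0.21 to 0.30. Whether these share a source was not tested. The main fits did not pair samples by number, and the counts with the block are given above. In the fit of 15 libraries the widest intervals of the set were those of *Gins1*, *Clspn* and *Cdc6*, each with a library of at most 1 read at rest.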
